A study of Mus musculus with 2 samples.

Results

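Among sorted CD11b+ liver cells of 4 mice, 872 of 15384 cells (5.67%) met a rule on macrophage genes led by Tmem119, Olfml3 and Pf4, with Cd5l listed at 0. A cell was taken when at most 25% of its counts came from mitochondrial genes and when at least 3 of Tmem119, Olfml3, Pf4, Ms4a7, Plxdc2 and Itga6 had a count, of which at least 2 were among Tmem119, Olfml3 and Pf4. Cd5l, Clec4f and Cd209a had to be at 0. These 9 genes chose the cells from the same counts that are described here, so their levels, and the levels of other genes against unselected cells, are a description of the selection and carry no test. The cells are called the selected macrophages, although a cell need not have every marker, and 429 of the 872 (49.2%) had a count of Tmem119.

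The liver macrophages of a healthy mouse are mostly Kupffer cells, which line the sinusoids, are seeded before birth and express Clec4f, Timd4 and Cd5l. When Kupffer cells are lost, Ly6Chi Ccr2+ blood monocytes enter the liver and become macrophages, some of which acquire Kupffer cell genes while others take on a lipid-associated programme with Trem2, Gpnmb and Spp1. Tmem119 and Olfml3 are best known from microglia, where TGF-beta signalling maintains them. Pf4, a chemokine gene of platelets, and Ms4a7 are also expressed by macrophages at the borders of the brain, and Itga6 encodes an integrin chain that binds laminin. Egr2 encodes a zinc finger transcription factor that is induced in macrophages by signals such as interleukin-4.

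The study asked what Egr2 does in the macrophages that populate the liver in diet-induced steatohepatitis. Liver cells gated as CD45.2+ and CD11b+ and negative for CD90.2, B220, NK1.1 and SiglecF came from 4 mice, 1 per group, were marked with 1 hashtag per mouse and were pooled for capture. All mice carried loxP-flanked Egr2 (Egr2fl/fl), and in Lyz2Cre/+.Egr2fl/fl mice Cre is expressed from the Lyz2 locus, which is active in monocytes, macrophages and neutrophils. A mouse of each genotype was fed normal diet (ND), and a mouse of each genotype was fed a fat-rich diet without choline and with defined amino acids (CDA-HFD), which causes steatohepatitis, for 7 weeks. The methods give male mice of 6 to 12 weeks of age for the diet. The pool was loaded with 3000 cells from each ND-fed mouse and 9000 cells from each CDA-HFD-fed mouse. With 1 mouse per group no difference between groups has a replicate check, and each 95% interval given here covers counting error only, not the variation between mice.

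For each mouse, the counts of a gene were added up within a cell group and scaled to a total of 1000000 (CPM). The summed totals of the selected macrophages were 452346 counts in the ND-fed Egr2fl/fl mouse, 406649 in the ND-fed Lyz2Cre/+.Egr2fl/fl mouse, 9296247 in the CDA-HFD-fed Egr2fl/fl mouse and 10236262 in the CDA-HFD-fed Lyz2Cre/+.Egr2fl/fl mouse. Values of 4 mice are given in this order throughout. The median total per selected macrophage was 9519, 12699, 23603 and 20810 counts, which is 0.578, 0.80, 1.79 and 1.54 of the median over all cells of the same mouse. The ND-fed mice thus gave few and shallow cells (33 and 28), and gene comparisons were made within the CDA-HFD-fed mice. For 25 genes with counts in at least 50 barcodes no value from 1 to 4 was found. Their low values appear to have been set to 0 before deposit, and genes with fewer barcodes or a smaller lowest value were not counted here. The lowest value above 0 was 7 for Cd5l and 8 for Clec4f, so that a cell at 0 for these genes can hold a few counts of them. The same holds for C1qa (lowest value above 0 of 7), C1qb (6), C1qc (7), Apoe (18), Ctsb (7), Plac8 (6), S100a9 (22), Retnlg (6), Mmp12 (5), Lyz2 (11), Vsig4 (5), Fcna (6), Cd74 (10) and H2-Ab1 (8), among others. If low values were set to 0, the CPM of these genes leave out the low values of single cells, and their intervals do not cover the omission. A share of cells with a count of them is a share of cells at or above that value. The part of the omission in their ratios was not tested.

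The check of the label came from macrophage genes that the selection did not use. The 14 genes of a macrophage identity list, summed, had high levels in other myeloid cells too. They reached 28202, 23222, 25294 and 20148 CPM in the selected macrophages, 25306, 22997, 16234 and 11331 CPM in the remaining cells and 22895, 19001, 23986 and 14375 CPM in the Ly6c2 Ccr2 monocytes, which had counts of these genes and none of Tmem119, Olfml3, Pf4 and Ms4a7. Lyz2, whose locus carries Cre, is on the list, and its levels on CDA-HFD, given further below, make up a large part of these sums. The sums of the genotypes thus also follow the level of Lyz2. Single genes differed more. Adgre1, which encodes F4/80, stood at 453, 509, 371 and 456 CPM in the selected macrophages, at 148, 181, 100 and 102 CPM in these monocytes and at 634, 605, 134 and 172 CPM in the remaining cells, which on ND include 747 and 803 cells with counts of Clec4f, Timd4 and Cd5l, genes of Kupffer cells. Mertk, a receptor for apoptotic cells, stood at 70.7, 59.0, 62.1 and 69.4 CPM, against 18.3, 40.4, 6.31 and 9.35 CPM in the monocytes. Csf1r, the receptor of the macrophage growth factor CSF1, stood at 1344, 1439, 992 and 1040 CPM, against 627, 933, 797 and 869 CPM. Adgre1, Mertk and Csf1r were each higher in the selected macrophages than in the monocytes of the same mouse, and lower than in the remaining cells on ND, where Mertk stood at 113 and 133 CPM and Csf1r at 1690 and 1768 CPM. The fractalkine receptor gene Cx3cr1 stood at 1203, 1104, 677 and 703 CPM, against 84.0, 87.6, 298 and 337 CPM in the remaining cells and 170, 320, 394 and 434 CPM in the monocytes. Against the name of the lead gene, Sall1, a transcription factor gene that defines microglia, had no count in any selected macrophage, and the microglial gene Adgrg1 had no count on ND and stood at 0.430 and 0.489 CPM on CDA-HFD. Gata6, which marks large peritoneal macrophages, was at or below 0.0977 CPM.

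The selected macrophages made up 33 of 1723 cells (1.92%, exact 95% interval 1.32 to 2.68) on ND with intact Egr2 and 28 of 1590 cells (1.76%, 1.17 to 2.54) on ND with Cre. On CDA-HFD the Egr2fl/fl mouse had 365 of 5885 cells (6.20%, 5.60 to 6.85), and the mouse with Cre had 446 of 6186 (7.21%, 6.58 to 7.88). The share was 4.29 points higher on CDA-HFD than on ND in the Egr2fl/fl mice (3.31 to 5.16) and 5.45 points higher in the Lyz2Cre/+.Egr2fl/fl mice (4.45 to 6.34). Before the limits on Cd5l, Clec4f and Cd209a, 63, 76, 444 and 572 cells met the rule on the marker genes. Of these, 29, 43, 58 and 91 had a count of Cd5l, so the limits removed a larger part of the cells on ND. Their part in the diet differences was not tested. Between genotypes the difference, Lyz2Cre/+.Egr2fl/fl minus Egr2fl/fl, was 1.01 points on CDA-HFD (0.103 to 1.91) and -0.154 points on ND (-1.12 to 0.821). Because a deeper cell has more chances to show a count of a marker, each cell was also thinned to 5000 counts before the rule was applied, leaving out shallower cells. The thinned shares were 18 of 1547 cells (1.16%), 17 of 1351 (1.26%), 162 of 4894 (3.31%) and 240 of 5357 (4.48%), so the diet differences became 2.15 points (1.32 to 2.86) and 3.22 points (2.30 to 4.01), smaller than without thinning. The genotype difference on CDA-HFD was 1.17 points with thinning (0.407 to 1.93). Among barcodes with at least 90% of their hashtag counts from their own hashtag it was 0.556 points, with an interval from -0.567 to 1.67.

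**Figure D1:**
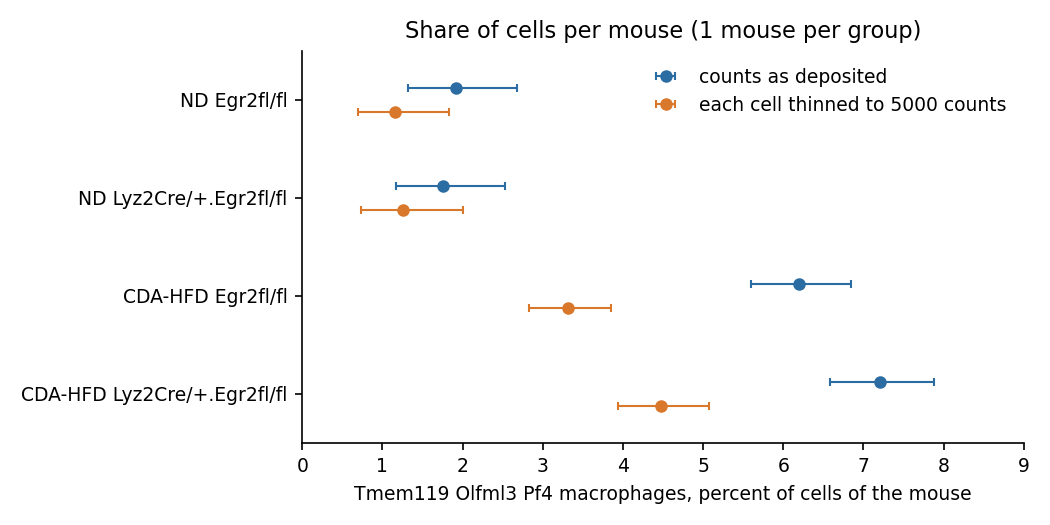
Share of the selected macrophages among the cells of each mouse, in percent (x axis), with 1 mouse per row. Points are shares of the deposited counts (blue) and of cells thinned to 5000 counts (orange), and bars are exact 95% intervals for counting error. Both CDA-HFD-fed mice, at 6.20% and 7.21%, lie above both ND-fed mice, at 1.92% and 1.76%, and the order of the diets is the same after thinning.

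The marker genes were detected together to different extents. Of the 872 cells, 299 (34.3%) had a count of 3 of the 6 genes, 329 (37.7%) of 4, 217 (24.9%) of 5 and 27 (3.10%) of all 6. The most frequent combination was Olfml3, Pf4 and Ms4a7 without the others, in 173 cells (19.8%), followed by the same genes with Itga6 in 133 cells (15.3%) and with Tmem119 and Itga6 in 113 cells. Olfml3 had a count in 91.9% of the selected macrophages, Ms4a7 in 90.7%, Pf4 in 89.2%, Itga6 in 52.8%, Tmem119 in 49.2% and Plxdc2 in 23.1%. In neutrophil-like cells with counts of Csf3r, Retnlg and S100a9, which should lack these genes, the shares were between 0.647% for Plxdc2 and 3.72% for Pf4 and Ms4a7, at a median total of 4199 counts against 21372 in the selected macrophages.

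The levels of the marker genes in the 4 mice describe the selection. Tmem119, a transmembrane protein gene, stood at 86.2, 116, 71.9 and 94.2 CPM, against 3.60 and 8.87 CPM in the remaining cells of the CDA-HFD-fed mice. Olfml3, a gene of a secreted olfactomedin domain protein, stood at 232, 280, 200 and 216 CPM, and Pf4 at 886, 693, 720 and 675 CPM. Ms4a7, of a family of membrane proteins with 4 spans, stood at 615, 369, 543 and 719 CPM. Plxdc2, a gene of a plexin domain protein, stood at 35.4, 24.6, 31.9 and 38.8 CPM. Itga6 had the widest spread of the 6 genes by the ratio of its highest to its lowest value, at 24.3, 111, 58.7 and 95.6 CPM. Itga6 was lowest in the ND-fed Egr2fl/fl mouse, whose selected macrophages had the lowest median total.

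The 6 marker genes lie on different chromosomes or far apart, at chr5:113793729-113800396 for Tmem119, chr3:103735394-103738001 for Olfml3, chr5:90772435-90773383 for Pf4, chr19:11321039-11336146 for Ms4a7, chr2:16355740-16761132 for Plxdc2 and chr2:71786886-71858427 for Itga6 (RefSeq, GRCm38.p6). Olfml3 and Pf4 are the genes of the leading trio that the table of promoters used here holds, and the 250 bases before the start of their transcription are shown, at chr3:103738002-103738251 on the minus strand and chr5:90772185-90772434 on the plus strand, 5′ to 3′ along the strand of the gene. Capitals mark a match to the PU.1 motif, PU.1 being a transcription factor of all myeloid cells.
Olfml3: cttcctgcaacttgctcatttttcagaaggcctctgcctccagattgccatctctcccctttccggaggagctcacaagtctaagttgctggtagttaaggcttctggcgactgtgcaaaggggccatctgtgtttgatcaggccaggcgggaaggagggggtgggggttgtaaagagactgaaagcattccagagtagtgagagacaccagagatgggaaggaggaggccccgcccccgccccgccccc
Pf4: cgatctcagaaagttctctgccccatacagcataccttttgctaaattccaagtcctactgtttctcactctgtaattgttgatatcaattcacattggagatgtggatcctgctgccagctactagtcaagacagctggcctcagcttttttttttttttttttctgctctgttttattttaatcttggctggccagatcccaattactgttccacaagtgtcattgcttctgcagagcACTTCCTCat
That table held 3 of the 6 marker genes, Olfml3, Pf4 and Ms4a7. The motifs searched on both strands were the PU.1 motif GAGGAAGT, the Egr motif GCGTGGGCG, the AP-1 motif TGAGTCA and the Smad motif GTCTAGAC. The only match was the PU.1 motif, as its reverse complement, in the promoter of Pf4. Of 32851 promoters, 802 (2.44%) hold the PU.1 motif, 176 (0.536%) the Egr motif, 1466 (4.46%) the AP-1 motif and 55 (0.167%) the Smad motif.

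Groups of cells near the border of the rule differed in genes other than the 9 as well, though not every group inside differed from every group outside. On CDA-HFD, cells with exactly 3 of the 6 genes (131 and 137 cells in the Egr2fl/fl and the Lyz2Cre/+.Egr2fl/fl mouse) had Fcrls at 16.7 and 26.3 CPM, C1qa at 2373 and 2083 CPM and the monocyte gene Plac8 at 157 and 329 CPM. Cells with 4 or more (234 and 309) had Fcrls at 68.9 and 71.2 CPM, C1qa at 3185 and 3058 CPM and Plac8 at 66.3 and 87.3 CPM. Outside the rule, cells with only 2 of the 6 genes, both among Tmem119, Olfml3 and Pf4 (30 and 38), had Fcrls at 9.33 and 4.55 CPM, C1qa at 1439 and 2210 CPM and Plac8 at 586 and 1294 CPM. Cells with at least 3 of the 6 genes but only 1 of Tmem119, Olfml3 and Pf4 (98 and 138) had Fcrls at 11.2 and 10.7 CPM, C1qa at 2339 and 2066 CPM and Plac8 at 167 and 371 CPM. The border of the rule was thus not sharp, and for C1qa and Plac8 the cells with exactly 3 genes were nearer to the last of these groups than to the cells with 4 or more.

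By detection over the 4 mice together, most of whose selected cells came from the CDA-HFD-fed mice, the gene most like the markers was Fcrls, an Fc receptor-like scavenger gene known from microglia, with a count in 20.8% of the selected macrophages and 0.903% of the remaining cells, a ratio of 23.0. Fcrls had a count in 0 of 33 and 1 of 28 selected macrophages on ND and in 75 of 365 and 105 of 446 on CDA-HFD. Syngr1 followed with 23.9% against 2.32%. Ang, an angiogenin gene, Blnk, Cxcl14, Cd63-ps, Hpgds, Myo1e and Nuak1 were also among the leading 10 by this ratio, which ran from 5.95 for Ang down to 4.11 for Nuak1. Cd63-ps is a pseudogene, and reads of Cd63 may have been counted for it. The selected macrophages were deeper than the remaining cells on CDA-HFD, with medians of 23603 and 20810 counts against 12723 and 13029.5, which raises any share of cells with a count.

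Against the remaining cells of the same CDA-HFD-fed mouse, 241 of 13099 genes with at least 200 counts (1.84%) were more than 2-fold higher in the selected macrophages of both mice, and 790 (6.03%) more than 2-fold lower, leaving out the 9 genes of the rule. The median log2 ratio over all these genes was -0.000367. The genes of the classical complement starter C1q, the lipid carrier gene Apoe and the microglial gene Fcrls were higher, and monocyte, neutrophil and dendritic cell genes were lower. Fcrls stood at 53.1 against 3.90 CPM in the Egr2fl/fl mouse, a ratio of 13.6 (11.8 to 15.8), and at 59.0 against 2.39 CPM in the Lyz2Cre/+.Egr2fl/fl mouse, a ratio of 24.7 (20.9 to 29.2). C1qa stood at 2939 against 692 CPM and 2794 against 682 CPM, ratios of 4.25 (4.19 to 4.31) and 4.10 (4.04 to 4.15), with C1qb and C1qc between 3.57 and 4.12.

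The other genes with the highest ratios were of several kinds. Gatm, the first enzyme of creatine synthesis, stood at 199 against 39.2 CPM and 234 against 50.6 CPM, ratios of 5.07 and 4.61. Syngr1, a synaptogyrin, had ratios of 5.43 and 5.54, the chemokine gene Cxcl14 of 4.25 in both mice and Hpgds, a prostaglandin D synthase, of 3.48 and 3.47. The neighbouring ribonuclease genes Rnase4 and Ang, which share a promoter region and whose reads can be hard to part, had ratios of 3.94 and 4.56 for Rnase4 and 4.06 and 3.98 for Ang. Stab1, a scavenger receptor, stood at 163 against 39.4 CPM and 193 against 53.0 CPM, and Apoe at 35205 against 9694 CPM and 37823 against 11214 CPM. Rab3il1 and Pald1 were also among the 15 highest, with ratios between 3.65 and 4.15.

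Among the 10 lowest ratios were genes of blood monocytes and granulocytes. Plac8 stood at 93.8 against 2087 CPM and 153 against 2513 CPM. S100a8, a subunit of calprotectin, stood at 131 against 1959 CPM and 180 against 2050 CPM. Ace, Pglyrp1, Ifitm6, Itgb7, Mcemp1, Hp and Cbfa2t3 had ratios between 0.0340 and 0.108. The remaining cells hold the monocytes, neutrophils and dendritic cells of the sort, so these ratios describe what the selected macrophages were taken out of.

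**Figure D2:**
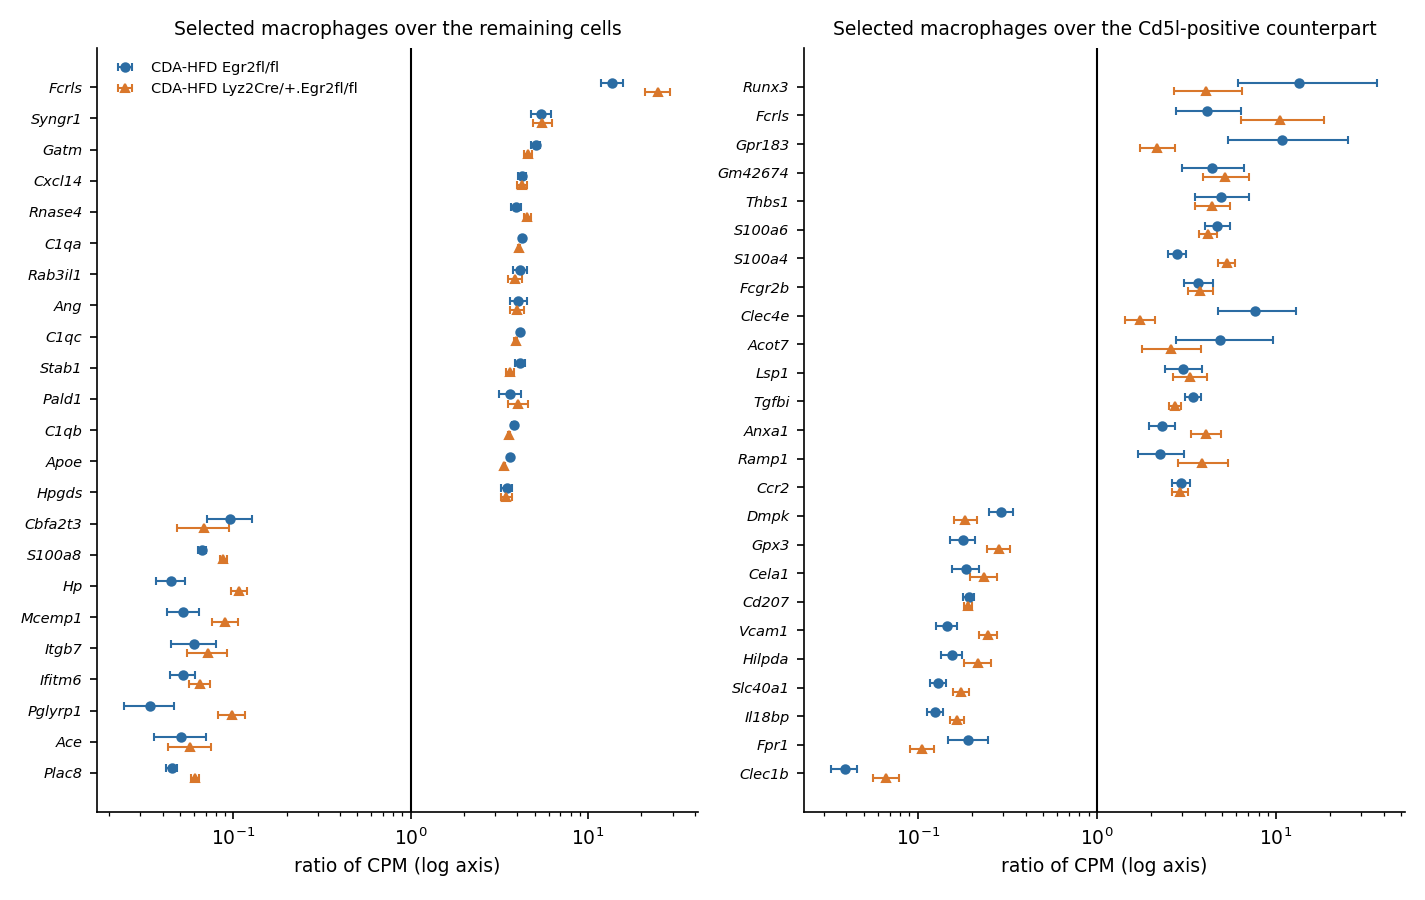
Ratio of CPM (x axis, log scale) of the selected macrophages over the remaining cells (left) and over cells that met the marker rule with a count of Cd5l (right, the Cd5l-positive counterpart) in the CDA-HFD-fed Egr2fl/fl mouse (circles) and Lyz2Cre/+.Egr2fl/fl mouse (triangles), for 14 of the 15 highest and 9 of the 10 lowest genes on the left and for the 15 highest and 10 lowest on the right. Bars are exact 95% intervals for counting error, and Fcrls, at 13.6 and 24.7 on the left and 4.12 and 10.5 on the right, is far on the higher side in both panels.

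Gene lists, read against shares of 1.84% higher and 6.03% lower over all genes, showed the same division. Of 14 macrophage identity genes, 7 were past 2-fold higher (Adgre1, Mertk, C1qa, C1qb, C1qc, Maf and Cx3cr1) and 0 lower, with a median log2 ratio of 1.06. Of 15 lipid-associated macrophage genes, 6 were higher (Gpnmb, Trem2, Ctsd, Ctsb, Lpl and Apoe) and 1, the coagulation factor gene F10, was lower. Of 16 growth and repair factors, 7 were higher (Igf1, Pdgfa, Gas6, Hgf, Grn, Il10 and Timp2) and 2 lower, Il1b and Fn1. Igf1, the insulin-like growth factor, stood at 573 against 189 CPM and 519 against 212 CPM. All 8 neutrophil genes, 10 of 12 dendritic cell genes, 8 of 10 Ly6Chi monocyte genes and 6 of 10 Ly6Clo monocyte genes were past 2-fold lower. Fewer macrophage and growth factor genes were higher against other macrophages. Of 15 growth factors read, 1 (Fn1) was higher than in the Cd5l-positive counterpart and 0 lower. Slc7a11 macrophages were chosen for counts of genes such as Slc7a11 and Srxn1. Against them, 2 of 16 growth factors were higher (Pdgfa and Gas6) and 2 lower (Tnf and Fn1). Of 15 lipid-associated genes 1 was higher (Apoe) and 1 lower (F10), and of 14 macrophage identity genes 6 were higher.

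Lists of tissue macrophages were mixed, where 1.84% of all genes were past 2-fold higher and 6.03% lower. Of 17 genes with enough counts that depend on TGF-beta or are known from microglia, 5 were past 2-fold higher, P2ry12, Gpr34, Fcrls and Rnase4 among them, and 2 lower (Siglech and Crybb1), with a median log2 ratio of 0.53. P2ry12, an ADP receptor gene, stood at 25.4 against 10.8 CPM and 34.1 against 10.9 CPM. Of 20 Kupffer cell genes, 1 was higher (Cd207, the langerin gene) and 5 lower (Timd4, Vsig4, C6, Fcna and Kcna2). Of 13 genes of perivascular and border macrophages, 4 were higher (Cbr2, Gas6, Stab1 and Wwp1) and 3 lower (Cd209d, F13a1 and Clec10a). Of 8 MHC class II presentation genes, 0 were past 2-fold in either direction, with a median log2 ratio of -0.365.

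A second comparison was made with cells that met the marker rule but had a count of Cd5l, with Cd209a at 0, called the Cd5l-positive counterpart (57 cells in the CDA-HFD-fed Egr2fl/fl mouse and 85 in the Lyz2Cre/+.Egr2fl/fl mouse, median totals 33104 and 31407 counts). Of 8145 genes, 61 (0.749%) were more than 2-fold higher in the selected macrophages of both mice and 84 (1.03%) more than 2-fold lower, with a median log2 ratio of 0.0139 over all genes. Of 14 macrophage identity and 15 lipid-associated genes 0 were past 2-fold, with median log2 ratios of -0.18 and -0.16, which with so few genes past 2-fold in all says little about these lists. Cd5l, which parts these groups, is a Kupffer cell gene, and Clec4f had to be at 0 in the selected macrophages only. The levels of other Kupffer cell genes thus describe this split and carry no test. Of 15 Kupffer cell genes with enough counts, 8 were lower in the selected macrophages and 0 higher, with a median log2 ratio of -2.33. Clec1b, the CLEC-2 gene, stood at 18.3 against 468 CPM and 17.8 against 266 CPM, ratios of 0.0391 (0.0330 to 0.0460) and 0.0669 (0.0566 to 0.0787). Slc40a1, the iron exporter ferroportin, stood at 61.3 against 471 CPM and 63.4 against 363 CPM, and Vcam1, an adhesion molecule, at 41.5 against 286 CPM and 59.2 against 240 CPM. Il18bp, which binds interleukin-18, stood at 62.8 against 501 CPM and 72.1 against 434 CPM, and Cd207 at 175 against 911 CPM and 237 against 1244 CPM. Fpr1, Hilpda, Cela1, Gpx3 and Dmpk were the other genes of the 10 lowest.

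Monocyte genes were on the other side of this comparison. Of 8 Ly6Chi monocyte genes, 4 were more than 2-fold higher in the selected macrophages (Ly6c2, Ccr2, Thbs1 and S100a4) and 0 lower, with a median log2 ratio of 1.54. Ccr2, the receptor that brings monocytes out of the marrow and into tissue, stood at 463 against 157 CPM, a ratio of 2.95 (2.63 to 3.32), and at 425 against 146 CPM, a ratio of 2.92 (2.64 to 3.23). Thbs1, thrombospondin-1, stood at 87.8 against 17.9 CPM and 131 against 29.9 CPM, and Tgfbi, a matrix protein, at 732 against 213 CPM and 622 against 228 CPM. Runx3, a transcription factor, stood at 40.0 against 2.98 CPM and 34.4 against 8.45 CPM, and Fcgr2b, the inhibitory Fc receptor, at 224 against 61.0 CPM and 219 against 58.1 CPM. Fcrls had ratios of 4.12 and 10.5. Gpr183, an oxysterol receptor, and Clec4e, the Mincle gene, had ratios that were far apart in the mice, 10.8 and 2.16 for Gpr183 and 7.60 and 1.74 for Clec4e. S100a4 and S100a6, Gm42674, Acot7, Lsp1, Anxa1 and Ramp1 made up the rest of the 15 highest. The counterpart was deeper than the selected macrophages, and cells near the limit for Cd5l can fall on either side.

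**Figure D3:**
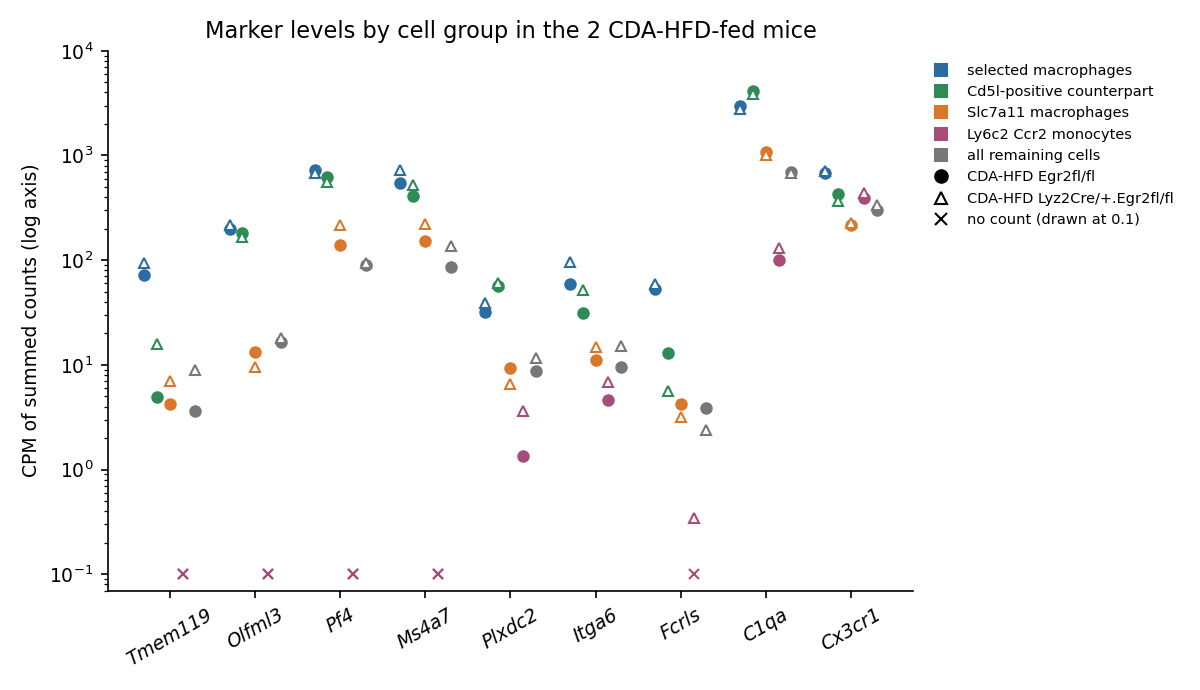
CPM of summed counts (y axis, log scale) of the 6 marker genes and of Fcrls, C1qa and Cx3cr1 in 5 cell groups of the CDA-HFD-fed Egr2fl/fl mouse (filled circles) and Lyz2Cre/+.Egr2fl/fl mouse (open triangles), with genes without a count drawn as crosses. Slc7a11 macrophages had counts of at least 3 of Slc7a11, Srxn1, Il1rn, Gclm and Ccl24, the Ly6c2 Ccr2 monocytes were chosen for a count of 0 of Tmem119, Olfml3, Pf4 and Ms4a7, and the counterpart lies close to the selected macrophages for Olfml3 and Pf4 but has less Tmem119, at 4.96 and 15.8 against 71.9 and 94.2 CPM.

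When all cells were clustered without reference to the rule, the selected macrophages were spread over 10 of 21 clusters. Cluster 3, led by Tmem119, Olfml3, Ms4a7, Itga6, Pf4, Rnase4, Ang, Plxdc2 and Hpgds, held 567 of them (65.0%), and they were 36.2% of its 1567 cells. It held 29, 27, 232 and 279 of the selected macrophages of the 4 mice, which is 63.6% and 62.6% of those of the CDA-HFD-fed mice. Cluster 7, led by Mmp12, Akr1b8, F7, Sdc1 and Emp1, held 176 (20.2%), and all but 2 of these came from the CDA-HFD-fed mice. Cluster 4, led by Gpr84, F10 and Il1rn, held 49, in which Spp1 stood at 2026 and 1597 CPM and Gpnmb at 84.0 and 97.6 CPM on CDA-HFD. Cluster 15, led by genes of cell division such as Kif20a, Hmmr and Ccnb2, held 47, which were 39.8% of its cells. With the 9 genes of the rule left out of the clustering, 510 (58.5%) still fell into a cluster led by Olfml3, Tmem119 and Ms4a7 and 183 (21.0%) into the cluster with Mmp12.

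The cells in clusters 3 and 7 differed in genes that the rule did not use. On CDA-HFD, Fcrls stood at 71.6 and 75.7 CPM in the selected macrophages of cluster 3 and at 16.8 and 18.4 CPM in those of cluster 7, and Gatm at 247 and 286 against 115 and 129 CPM. Cx3cr1 stood at 872 and 879 against 305 and 360 CPM, and Ccr2 at 582 and 527 against 184 and 223 CPM. The MHC class II gene H2-Ab1 stood at 6603 and 5350 against 2924 and 2371 CPM. In the other direction, Gpnmb, a lysosomal and membrane glycoprotein gene of lipid-laden macrophages, stood at 447 and 395 CPM in cluster 3 and at 1309 and 829 CPM in cluster 7. Spp1, osteopontin, stood at 231 and 143 against 1118 and 832 CPM. These genes took part in the clustering, so the differences describe the clusters.

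**Figure D4:**
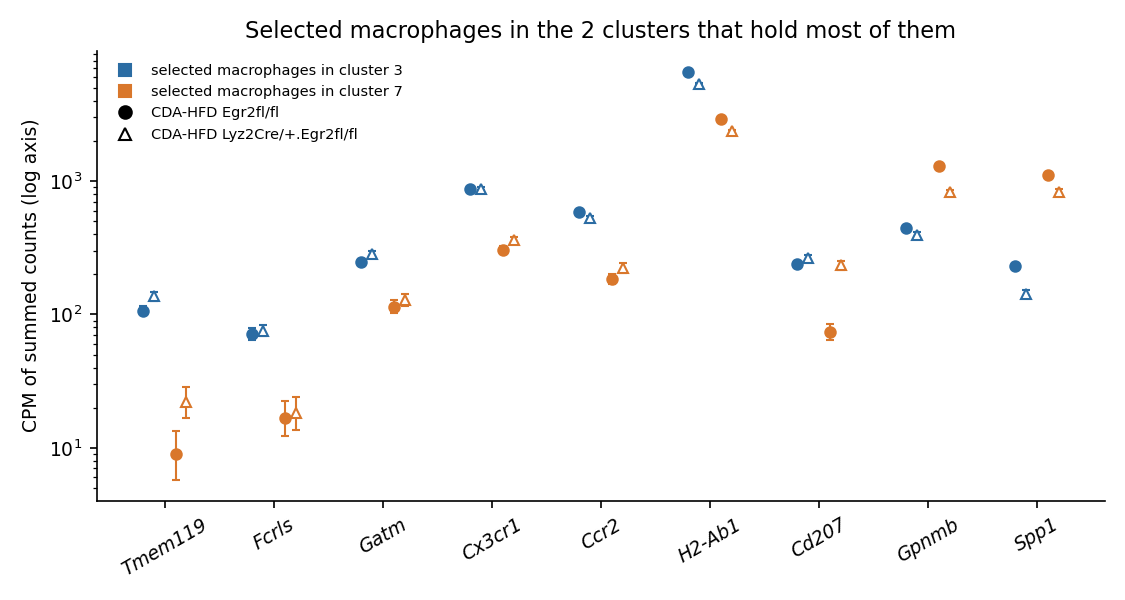
CPM of summed counts (y axis, log scale) of 9 genes in the selected macrophages of cluster 3 (blue) and cluster 7 (orange) of the CDA-HFD-fed Egr2fl/fl mouse (filled circles) and Lyz2Cre/+.Egr2fl/fl mouse (open triangles). Bars are exact 95% intervals for counting error, and Tmem119, Fcrls, Gatm, Cx3cr1, Ccr2 and H2-Ab1 are higher in cluster 3 in both mice, while Gpnmb and Spp1 are higher in cluster 7.

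Splits by single genes did not all follow the division into clusters 3 and 7. On CDA-HFD, selected macrophages with a count of Gpnmb (258 and 264 cells) had Ccr2 at 419 and 342 CPM, against 617 and 588 CPM in those without (107 and 182). They had Trem2, the lipid-sensing receptor gene, at 1113 and 1144 against 817 and 809 CPM. Spp1 lay on opposite sides in the mice, at 536 against 615 CPM in the Egr2fl/fl mouse and at 487 against 267 CPM in the Lyz2Cre/+.Egr2fl/fl mouse. Cells with a count of Cd207 (51 and 71) had Gpnmb at 870 and 939 CPM, against 638 and 437 CPM in those without, and Fcrls at 68.5 and 58.4 against 50.2 and 59.1 CPM. Cells with a count of Fcrls (75 and 105) had Cd207 at 341 and 436 CPM, against 130 and 171 CPM in those without. These splits are descriptions of the selected cells, and a deeper cell is more likely to show a count of any gene.

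Expression also varied widely from cell to cell. Per 10000 counts of a cell, Apoe had a median of 344 in the CDA-HFD-fed Egr2fl/fl mouse and of 363 in the Lyz2Cre/+.Egr2fl/fl mouse, with highest values of 1136 and 1450. Gpnmb was at 0 in 29.3% and 40.8% of these cells and reached 45.8 and 45.9. Cd207 was at 0 in 86.0% and 84.1%, so its summed level came from a minority of cells. Spp1 was at 0 in 52.3% and 61.0% and reached 193 and 169.

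Between genotypes, Egr2 itself was compared before other genes. In the selected macrophages Egr2 stood at 77.4 CPM in the Egr2fl/fl mouse and 9.84 CPM in the Lyz2Cre/+.Egr2fl/fl mouse on ND, and at 38.7 CPM (34.8 to 42.9) and 2.83 CPM (1.90 to 4.07) on CDA-HFD, a ratio of 0.0732 (0.0483 to 0.107). In the remaining cells of the CDA-HFD-fed mice it stood at 50.7 and 20.2 CPM, a ratio of 0.399 (0.376 to 0.423). Lyz2, whose locus carries Cre, stood at 11932 and 6670 CPM in the selected macrophages on CDA-HFD. The labels of the mice thus matched the level of the deleted gene within these cells.

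Of 7452 genes with at least 200 counts in the selected macrophages of the CDA-HFD-fed mice, 191 (2.56%) were more than 1.5-fold higher in the Lyz2Cre/+.Egr2fl/fl mouse and 112 (1.5%) more than 1.5-fold lower, with a median log2 ratio of 0.0226. When the summed profiles were scaled by edgeR's TMM factors instead of their totals, 154 were higher and 147 lower. These are differences between 1 mouse and 1 mouse, and they can come from the mice as well as from Egr2, which cannot be told apart. In both mice most of the cells lay in cluster 3.

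The 15 genes with the lowest ratios of the Lyz2Cre/+.Egr2fl/fl mouse over the Egr2fl/fl mouse were of several kinds. Hspa1a, an inducible heat shock protein gene, stood at 155 CPM in the Lyz2Cre/+.Egr2fl/fl mouse and 588 CPM in the Egr2fl/fl mouse, a ratio of 0.264 (0.250 to 0.280), and its near-identical copy Hspa1b at 43.6 and 162 CPM. Reads of Hspa1a and Hspa1b may have been split between them. Mmp12, macrophage elastase, stood at 99.4 and 297 CPM, a ratio of 0.334 (0.311 to 0.360), and Itgax, the integrin gene that encodes CD11c and the only 1 of 9 integrin genes with enough counts that was past 1.5-fold, at 52.7 and 126 CPM, a ratio of 0.417 (0.376 to 0.463). Itgax was at 0 in 67.7% of the cells of the Lyz2Cre/+.Egr2fl/fl mouse and in 40.5% of those of the Egr2fl/fl mouse. Gdf15, a stress-induced cytokine gene, stood at 93.6 and 215 CPM and Fabp7, a fatty acid-binding protein gene, at 93.8 and 205 CPM. Ccl24, the eotaxin-2 gene, stood at 16.7 and 39.9 CPM, and the transcription factor genes Hes1 and Bhlhe40 at 16.6 and 39.5 CPM and at 17.9 and 41.6 CPM. Rhoc, Gadd45g, Alas1, Gadd45b, Zfand2a and Scimp had ratios between 0.400 and 0.519.

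The 15 genes with the highest ratios were likewise mixed. The histone gene Hist1h2ap, of a multigene family whose copies share reads, stood at 81.5 CPM in the Lyz2Cre/+.Egr2fl/fl mouse and 17.5 CPM in the Egr2fl/fl mouse, a ratio of 4.65 (3.92 to 5.53). Folr2, a folate receptor gene of resident macrophages, stood at 70.3 and 21.1 CPM, a ratio of 3.34 (2.84 to 3.93), and Ly6c2 at 105 and 37.0 CPM, a ratio of 2.84 (2.52 to 3.22). Fkbp5, a chaperone gene that glucocorticoids induce, stood at 45.2 and 16.8 CPM, and Igf2r, the receptor of IGF2 and mannose-6-phosphate, at 36.5 and 16.1 CPM. Ly6a, H1f2, Serpinb8, Tnip3, Pnpla7, Bach2os, Dppa3, Pclaf, H2bc4 and E230029C05Rik had ratios between 1.77 and 2.27. Ly6c2 and Ly6a are also members of a gene family whose copies can share reads.

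The 30 genes were picked for their size in the selected macrophages, and in the remaining cells of the same mice all 30 and Egr2 lay on the same side of 1, 16 of these 31 past 1.5-fold. The ratio was close in both populations for Hspa1a (0.264 and 0.294), Hspa1b (0.269 and 0.290) and Fkbp5 (2.70 and 2.51). It was 0.417 against 0.703 for Itgax, 0.419 against 0.939 for Ccl24, 2.84 against 1.23 for Ly6c2 and 4.65 against 1.22 for Hist1h2ap. No difference between populations was tested, since each rests on the same 2 mice.

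**Figure D5:**
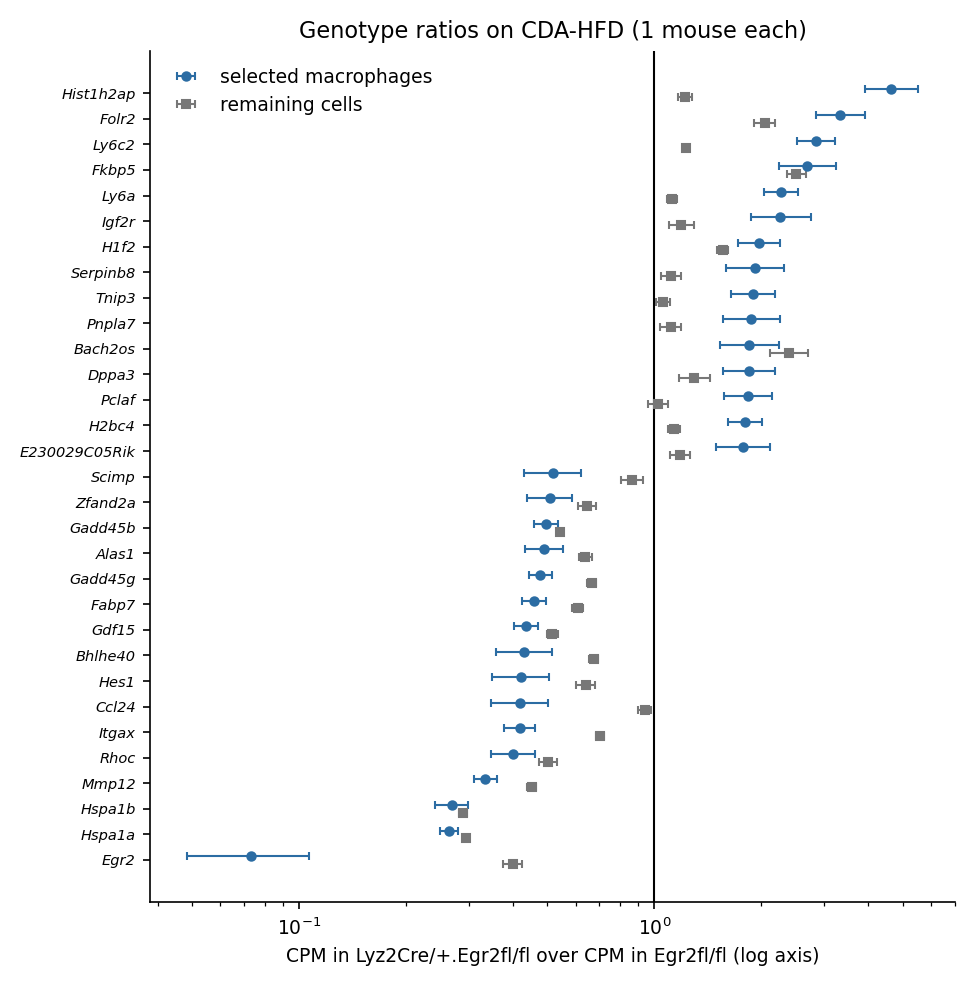
Ratio of CPM in the Lyz2Cre/+.Egr2fl/fl mouse over the Egr2fl/fl mouse on CDA-HFD (x axis, log scale) in the selected macrophages (blue circles) and in the remaining cells (grey squares), for the 15 highest and 15 lowest genes in the selected macrophages and for Egr2. Bars are exact 95% intervals for counting error, and Egr2 has the lowest ratio in the selected macrophages, 0.0732, against 0.399 in the remaining cells, where Hspa1a and Hspa1b are lower.

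Part of the cell division genes were higher in the Lyz2Cre/+.Egr2fl/fl mouse. Of 8 proliferation genes, 5 were past 1.5-fold higher (Mki67, Top2a, Birc5, Cdk1 and Pclaf) and 0 lower, with a median log2 ratio of 0.700. Of all genes, 2.56% were past 1.5-fold higher and 1.5% lower. Birc5, survivin, stood at 41.3 CPM in the Lyz2Cre/+.Egr2fl/fl mouse and 17.1 CPM in the Egr2fl/fl mouse, and Mki67 at 32.4 and 18.9 CPM. By cluster, Mki67 stood at 264 and 197 CPM in the 27 and 19 cells of cluster 15 and at 9.18 and 5.52 CPM in cluster 3. In cluster 7 it stood at 1.47 (0.400 to 3.76) and 4.84 CPM (2.58 to 8.28). Top2a stood at 169 and 95.3 CPM in cluster 15 and at 1.24 (0.497 to 2.54) and 2.02 CPM (1.01 to 3.62) in cluster 3. In cluster 7 Top2a stood at 1.84 (0.596 to 4.28) and 4.84 CPM (2.58 to 8.28). Mki67 in cluster 7 and Top2a in clusters 3 and 7 thus lay the other way, but at low values whose intervals overlapped between the mice. The share of selected macrophages with counts of at least 2 of these genes was nevertheless close, at 14.8% (66 of 446 cells, 11.6 to 18.4) and 14.2% (52 of 365 cells, 10.8 to 18.3). In the remaining cells of these mice it was 4.70% and 4.98%, at lower depth. On ND it was 1 of 33 and 1 of 28 cells.

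Of 8 Ly6Chi monocyte genes, 4 were past 1.5-fold higher in the Lyz2Cre/+.Egr2fl/fl mouse (Ly6c2, Plac8, Chil3 and Hp) and 0 lower, and of 4 neutrophil genes 2 were higher, S100a9 and Retnlg. S100a9 stood at 125 and 36.6 CPM, against 2750 and 2921 CPM in the remaining cells, and 1.79% and 0.822% of the selected macrophages had a value of it, none of which is below 22 counts. By cluster, the directions of Plac8 were mixed. In cluster 3, which held most of the cells, Plac8 stood at 83.8 CPM in the Lyz2Cre/+.Egr2fl/fl mouse and 99.9 CPM in the Egr2fl/fl mouse, the opposite direction, and Ly6c2 at 60.9 and 23.0 CPM. In cluster 7 (93 and 81 cells) Plac8 stood at 77.5 and 29.4 CPM. In cluster 15 (27 and 19 cells) Plac8 stood at 230 and 12.3 CPM, in cluster 4 (26 and 23 cells) at 299 and 55.1 CPM, and in the 16 cells of cluster 1 of the Lyz2Cre/+.Egr2fl/fl mouse at 1774 CPM, where the Egr2fl/fl mouse had 5 cells. Whether monocyte or neutrophil transcripts in the selected cells had a part in these differences was not tested. Of 13 dissociation and immediate early genes, 4 were lower (Jun, Hspa1a, Hspa1b and Dnajb1) and 0 higher, and the summed level of that list was 4237 CPM in the Lyz2Cre/+.Egr2fl/fl mouse and 5005 CPM in the Egr2fl/fl mouse, against 5787 and 7091 CPM in the remaining cells. Its part in the other differences was not tested. Of 8 MHC class II genes, 2 were lower (H2-DMa and H2-DMb1), and of 15 lipid-associated macrophage genes 1 was lower (F10). None of 15 lipid handling genes, 14 scavenger and phagocytic receptor genes or 9 complement genes was past 1.5-fold in either direction, where 2.56% and 1.5% of all genes were. Of 13 genes that depend on TGF-beta or are known from microglia, 2 were higher, Gpr34 at 28.1 and 17.9 CPM and Rnase4 at 248 and 142 CPM.

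The other lists were also read against the remaining cells of the CDA-HFD-fed mice, where 1.84% of all genes were past 2-fold higher and 6.03% lower. Of 11 complement genes, 4 were higher (C1qa, C1qb, C1qc and C3ar1) and 1 lower (C3). Of 17 scavenger and phagocytic receptor genes, 4 were higher (Stab1, Mertk, Trem2 and Itgb5) and 1 lower (Timd4), and of 15 lipid handling genes 4 were higher (Lpl, Apoe, Abca1 and Acp5). Of 16 chemokine genes, 1 was higher (Cxcl14) and 3 lower (Ccl2, Cxcl9 and Cxcl13). Of 11 integrin genes, 2 were higher (Itga9 and Itgb5) and 1 lower (Itgb7), and of 9 genes of the Ms4a family, whose copies can share reads, 1 was higher and 3 lower. Of 7 peritoneal macrophage genes 4 were lower, and of 7 genes of Egr2 and its partners 1 was lower (Egr3). None of 8 proliferation genes was past 2-fold in both mice, with a median log2 ratio of 0.76.

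Genes known from other cell types were also read in the selected macrophages. The summed level of 10 platelet and megakaryocyte genes in the matrix was 59.7, 83.6, 21.5 and 22.0 CPM in the selected macrophages, of which most was Clec1b, and 40.7 and 45.6 CPM in the remaining cells of the CDA-HFD-fed mice. Cells with counts of at least 2 platelet genes other than Clec1b numbered 0, 0, 0 and 1, although Pf4 is a platelet gene. The hepatocyte list summed to 447, 467, 434 and 457 CPM, nearly all of it transferrin, Trf, while Alb was listed at 0 in all selected macrophages. On CDA-HFD 24.7% and 25.1% of the selected macrophages had counts of at least 2 hepatocyte genes, against 7.16% and 7.32% of the remaining cells. For neutrophil genes these shares were 46.3% and 45.1% against 44.5% and 42.9%, although the levels of these genes were lower, and S100a8 alone had a count in 89.0% and 86.5% against 79.1% and 77.0% of cells. For liver endothelial genes these shares were 34.2% and 36.1% against 20% and 22.6%, and for stellate cell and fibroblast genes 7.12% and 6.95% against 1.63% and 2.02%. On ND the shares lay the other way, at 12.1% and 10.7% against 22.4% and 42.0% for hepatocyte genes, 39.4% and 39.3% against 45.9% and 46.2% for neutrophil genes, 21.2% and 14.3% against 34.2% and 34.1% for endothelial genes and 3.03% and 0% against 5.86% and 8.51% for stellate genes. The selected macrophages were the deeper cells on CDA-HFD and the shallower cells on ND, with medians of 9519 and 12699 counts against 16704 and 16069.5, and the part of depth or of other cells in these shares was not tested. The summed level was 264 and 270 CPM against 284 and 358 CPM for the endothelial list and 53.2 and 63.5 against 31.9 and 47.6 CPM for the stellate list. The neutrophil list summed to 1461, 187, 236 and 403 CPM, the first of which held S100a9 at 553 CPM from 3.03% of the 33 cells, and the lymphoid list to 17.7, 125, 48.1 and 25.5 CPM.

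The selected macrophages of the ND-fed mice, 33 and 28 cells, were too few for a comparison of genes between diets, and the values of genes picked after they were seen are given side by side. MHC class II genes summed to 62888 and 56769 CPM on ND and to 26647 and 21355 CPM on CDA-HFD, where the remaining cells had 32202 and 28015 CPM. Cx3cr1 was higher on ND, as given above, and Cd81, a tetraspanin, stood at 895 and 986 CPM on ND and 185 and 186 CPM on CDA-HFD. Lilra5, an activating leukocyte receptor, stood at 358 and 376 against 36.0 and 35.6 CPM, and the collagenase gene Mmp13 at 394 and 320 against 38.5 and 18.4 CPM. Cd34 stood at 155 and 236 against 20.8 and 16.5 CPM, and Il1b at 2885 and 2990 against 1001 and 1243 CPM. For these genes both ND-fed mice lay above both CDA-HFD-fed mice.

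Other genes, likewise picked after their values were seen, lay the other way. Gpnmb stood at 84.0 and 128 CPM on ND and at 676 and 534 CPM on CDA-HFD, and lipoprotein lipase, Lpl, at 261 and 214 against 1697 and 1719 CPM. The lysosomal protease gene Ctsd stood at 1094 and 826 against 3543 and 3324 CPM, and Trem2 at 433 and 440 against 1048 and 1030 CPM. Spp1 stood at 86.2 and 148 against 553 and 412 CPM, and the fatty acid transporter gene Cd36 at 126 and 56.6 against 578 and 495 CPM. Fcrls had no count in the ND-fed Egr2fl/fl mouse and stood at 7.38 CPM in the ND-fed Lyz2Cre/+.Egr2fl/fl mouse. Apoe, at 41386 and 33048 CPM on ND, lay on both sides of its values on CDA-HFD, and the 15 lipid-associated genes together summed to 49475 and 39909 CPM on ND and 54372 and 55295 CPM on CDA-HFD. The selected macrophages also lay in different clusters by diet, with 87.9% and 96.4% of them in cluster 3 on ND against 63.6% and 62.6% on CDA-HFD. Within cluster 3, Gpnmb stood at 20.5 and 132 CPM on ND and at 447 and 395 CPM on CDA-HFD. Spp1 in cluster 3 stood at 2.93 and 153 CPM on ND and at 231 and 143 CPM on CDA-HFD, so that its direction was absent there between the Lyz2Cre/+.Egr2fl/fl mice. Among the genes higher on ND, Cd34 stood at 155 and 244 CPM in cluster 3 on ND against 26.9 and 19.4 CPM, and Cx3cr1 at 1362 and 1140 against 872 and 879 CPM. The part of the clusters in the other differences was not tested. A few cells can set these sums, and the median share of hashtag counts from the own hashtag was 88.8% and 89.3% in the selected macrophages on ND, against 93.1% and 92.9% in the remaining cells of the same mice and 94.3% and 94.9% in the selected macrophages on CDA-HFD. Its part in the difference between diets was not tested.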

How the data were processed

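Single-cell RNA-seq was made by the authors on the BD Rhapsody system with TAS-Seq amplification. Reads were mapped to the GRCm38-101 transcriptome and barcodes were assigned to mice by hashtag, and the submitters' processing notes name Seurat 4.1.1 and R 4.2.1. The deposited values are raw counts per gene and barcode and hashtag counts per barcode, with no normalization. The sources used here do not say if reads or unique molecules were counted. The matrix holds 16786 barcodes, of which the 1392 (8.29%) that the authors named doublets were left out, and 15394 belong to the 4 mice, with 0 barcode numbers shared between mice. The 7 other hashtag columns of the table were not analysed.

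Counts were summed per mouse and cell group in Python 3.11.15 (numpy 2.4.6, scipy 1.17.1). CPM carry exact Poisson intervals, ratios of CPM exact binomial intervals, shares Clopper-Pearson intervals and differences of shares Newcombe intervals built from them. A count of 0 in a ratio was replaced by 3 counts for the group. PCR copies are not independent molecules if reads were counted. Genes needed at least 200 summed counts, and were counted past 2-fold (cell groups, the same way in both CDA-HFD-fed mice) or 1.5-fold (genotypes). Clusters came from scanpy 1.11.5 and python-igraph 0.11.9 by Leiden at resolution 1 on 57 principal components of 2859 variable genes, and go by number. Neutrophil-like cells had counts of Csf3r, Retnlg and S100a9. Figures were drawn with matplotlib 3.10.9, and TMM factors came from edgeR 4.0.16 in R 4.3.3.

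Named genes were the 9 genes of the rule, Egr2, the 15 highest and 10 lowest ratios in each comparison of cell groups and the 15 highest and 15 lowest between genotypes (at least 500 counts and a count in at least 20%, between genotypes 10%, of the cells of the higher side, and for cell groups the same direction in both mice), and 2 or more examples of each of the 30 gene lists reported. Genes named between diets, in the clusters and in the splits of the selected macrophages were chosen after their values were seen. Against Slc7a11 macrophages only gene lists were read, and no leading genes were named. The members and lists were chosen with earlier results of these data known. Within-mouse doublets were not removed. Scrublet marked 60 of 15394 barcodes (0.390%), too few to have worked, so its score was used only to rank cells. Alternatives were other limits on mitochondrial counts, markers, hashtag share, platelet genes, Scrublet score, Cd5l, depth, gene counts and scaling, and a clustering without the 9 genes, which was chosen after seeing the data. Genes whose results are not reported here were left out of the text and of the plots.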

Additional observations from a re-analysis of the deposited data

Results flagged for a closer look

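The difference between genotypes in the share of the selected macrophages had opposite signs on the diets, 1.01 points on CDA-HFD (interval 0.103 to 1.91) and -0.154 points on ND (-1.12 to 0.821). The difference between these was not tested, as each rests on 1 mouse per group, and the intervals overlap.

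Barcodes that the authors named doublets were not used in any comparison, and 82 of 1387 of them (5.91%, 4.73 to 7.29) met the rule for the selected macrophages, against 5.67% of the cells of the 4 mice.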

How the results depend on the processing

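Each group was 1 mouse, so no replicate could be left out, and genes between diets were not compared, because the ND-fed mice had 33 and 28 cells against a minimum of 50. No paired analysis was possible because no group has a second mouse and no test was made. The genotype difference in share on CDA-HFD stayed between 0.556 and 1.29 points over 8 alternatives. The diet difference in the Egr2fl/fl mice, 4.29 points, was 6.06 with at least 90% of own hashtag counts and 2.15 with thinned cells. In the Lyz2Cre/+.Egr2fl/fl mice, 5.45 points, it was 3.74 with 4 marker genes, 6.64 with own hashtag counts of at least 90%, 6.41 without the limit on Cd5l and 3.22 with thinned cells. The 1031 genes past 2-fold against the remaining cells were 1603 without a minimum count (608 higher, 995 lower) and 736 to 1399 otherwise. The 145 genes against the counterpart were 86 at 500 counts or more (33 higher, 53 lower) and 718 without a minimum (233 and 485). The 303 genes between genotypes were 100 at 500 counts or more (55 higher, 45 lower) and 5429 without a minimum (2962 and 2467), where most genes have few counts. TMM scaling gave 301 of them, of which 266 were also among the 303. With at least 4 marker genes 151 of the 303 genes were still past 1.5-fold, and 94 of the 145 past 2-fold. Of 729 values of named genes under alternatives, 597 moved by less than the counting interval or not at all and 132 by more, and 0 changed direction. Alternatives that changed only the minimum count leave a ratio as it is, so the values under them could not move. The named genes were picked for the most extreme ratios, so a change of direction was unlikely from the start.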
